A study of Rattus norvegicus with 6 samples.

Results

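Heat shock proteins and endoplasmic reticulum (ER) chaperones were followed in crushed and intact sciatic nerves of the rat through 10 genes: the ER chaperones Hspa5, Hsp90b1 and Calr, the cytosolic chaperones Hspa8, Hspb1, Hsph1 and Dnajb1, the mitochondrial chaperonin Hspd1, and the transcription factors Hsf1 and Xbp1. They are all rows of the deposited table that carry one of these gene names, 10 of its 30957 rows. RNA-seq was run on 3 crushed nerves (labelled injured) and 3 nerves from the uninjured side (labelled normal), all from Sprague Dawley rats. The methods describe adult males, a crush with forceps, and collection of the proximal stump at 4 days postinjury (dpi), whereas the sample labels give no time point. The intact nerves came from injured animals, so both groups share the surgery and whatever it does to the body as a whole. The labels do not tie a nerve to an animal, so p-values measure the spread between these 6 samples. The design text places the lesion on the right, whereas the methods name the left nerve. The methods name a treatment with RNase R, which digests linear RNA such as most mRNA, and the labels name a column kit without it.

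Chaperones bind proteins that are not yet folded, or that have lost their fold, and keep them from aggregating. In the cytosol, damaged protein releases the transcription factor HSF1, which binds heat shock elements in promoters and raises the HSP70, J-domain, HSP110 and small heat shock proteins. In the ER, unfolded protein draws the HSP70 protein BiP (Hspa5) away from the sensors IRE1, PERK and ATF6. ATF6 then acts on ER stress response elements, and IRE1 splices the Xbp1 transcript, so that BiP, GRP94 (Hsp90b1) and calreticulin (Calr) rise. In peripheral nerve, the small heat shock protein HSP27 (Hspb1) is known for its part in axon survival and regrowth, and mutations in it cause inherited neuropathy.

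The promoters are shown first, because they set out which of the 10 genes carry the element of which pathway. RefSeq promoter windows of GRCr8, from 250 bases before to 50 bases after each gene's start, were matched by symbol for 9 of the 10 genes and not for Hsf1. The ER stress response element was searched as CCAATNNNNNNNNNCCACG on both strands. It was present in 4 genes, Hspa5, Hsp90b1, Calr and Xbp1, and in 22 of all 33469 promoters (0.0657%). The stretches below run 5′ to 3′ on the strand of the gene, with the element in capitals, and on the opposite strand it reads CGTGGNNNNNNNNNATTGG. They lie at chr3:38452961-38453003 (plus strand) for Hspa5, chr7:23012439-23012481 and chr7:23012335-23012377 (minus strand) for the distal and proximal copies of Hsp90b1, chr19:40213123-40213165 (plus strand) for Calr and chr14:84604546-84604588 (plus strand) for Xbp1.
Hspa5: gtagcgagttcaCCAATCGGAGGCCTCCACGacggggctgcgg
Hsp90b1 distal: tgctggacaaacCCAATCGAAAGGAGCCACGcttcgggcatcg
Hsp90b1 proximal: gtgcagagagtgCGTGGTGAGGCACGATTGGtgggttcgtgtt
Calr: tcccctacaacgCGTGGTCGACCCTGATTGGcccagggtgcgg
Xbp1: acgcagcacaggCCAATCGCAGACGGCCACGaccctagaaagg

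The heat shock element is a run of inverted GAA units. A run of 3 units, GAANNTTCNNGAA on either strand, was present in Hspa8, Hsph1 and Hspd1 and in 267 of all 33469 promoters (0.798%). Hspb1 and Dnajb1 held the shorter run GAANNTTC, which reads the same on both strands, lies inside the longer run wherever that occurs, and was in 8.59% of all promoters. The other pair, TTCNNGAA, also lies inside the longer run and was in 8.77%. The windows below show runs upstream of the start in capitals. Not shown are a second run of GAANNTTC in Dnajb1, 18 to 25 bases after its start, and a run of TTCNNGAA in Hsph1 at bases -105 to -98. They lie at chr8:50080289-50080325 and chr8:50080447-50080483 (plus strand) for the distal and proximal runs of Hspa8, chr12:10427320-10427356 (plus strand) for Hsph1, chr9:64084250-64084287 (minus strand) for Hspd1, chr12:26432391-26432442 (minus strand) for Hspb1 and chr19:41431142-41431164 (minus strand) for Dnajb1.
Hspa8 distal: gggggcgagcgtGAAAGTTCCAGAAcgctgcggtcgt
Hspa8 proximal: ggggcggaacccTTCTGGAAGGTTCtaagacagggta
Hsph1: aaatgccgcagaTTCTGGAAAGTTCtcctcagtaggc
Hspd1: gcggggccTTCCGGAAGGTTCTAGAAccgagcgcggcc
Hspb1: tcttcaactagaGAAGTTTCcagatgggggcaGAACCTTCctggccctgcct
Dnajb1: tcgggaggggcgGAAGGTTCtgg

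The run of Hspd1 is also the one found in the promoter of Hspe1, which encodes its partner HSP10. The 2 windows cover the same stretch, with that of Hspe1 at chr9:64084250-64084291 (plus strand), so the run is read there as its reverse complement. A match describes letters in these windows and is not a measurement of binding. The sets did not overlap: the 4 genes with the ER element held no heat shock run of 3 units, and the 3 genes with that run held no ER element.

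**Figure D1:**
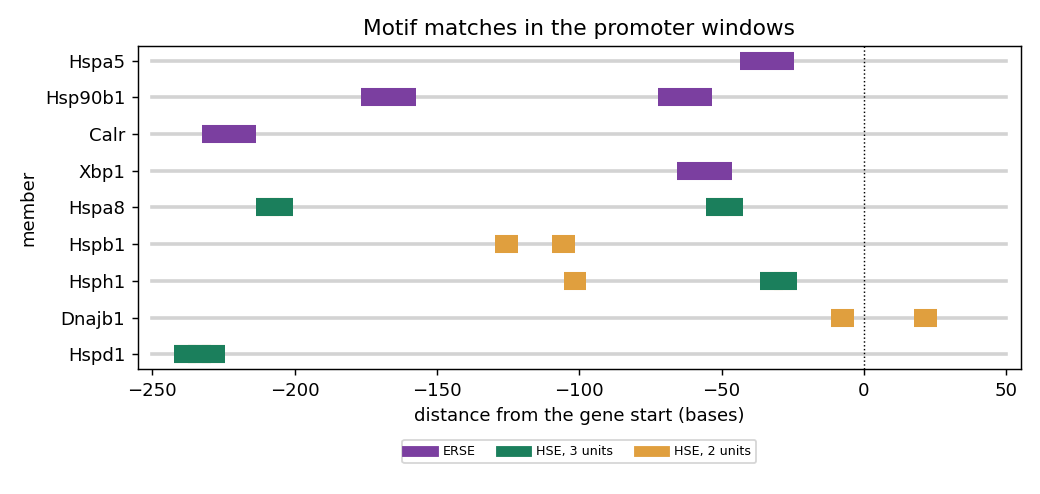
Position of each motif match in the promoter window of 9 genes, in bases from the gene start (0, dotted line), with grey lines for the window. The ER stress response element is purple, the heat shock run of 3 units green and the run of 2 units orange. Purple marks are in Hspa5, Hsp90b1, Calr and Xbp1 and green marks in Hspa8, Hsph1 and Hspd1.

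The counts on genes summed to between 24844371 and 27139360 per nerve, and 3 counts, the level taken as the limit of detection, were 0.110 to 0.121 CPM (counts divided by the TMM-adjusted library size). Intact nerve 1 stood apart. Over genes, the chi-square of its counts per degree of freedom was 11.4 against intact nerve 2 and 11.8 against intact nerve 3, compared with 4.58 between those 2 nerves and 3.27 to 7.30 among the crushed nerves. The defining markers of nerve were near absent: Mag and Cdh19 were at 0 in every nerve, and Mbp had at most 1 count. The 12 Schwann cell and myelin markers summed to 68.0 to 72.3 CPM in intact and 63.6 to 64.8 CPM in crushed nerves, with Pmp22 the highest (32.4 to 35.4 CPM, overlapping between groups). Of these markers Erbb3 was lower in crushed nerves (log2 fold change -0.59, adjusted p 0.0222 by edgeR), and Prx was at -0.20 (adjusted p 0.166). The 9 macrophage and monocyte markers, with Adgre1, Ptprc and Cd163 at 0, summed to 3.94 to 5.53 CPM in intact and 4.43 to 6.30 CPM in crushed nerves. Of the 5 fibroblast markers Col1a2, Dcn and Lum were at 0 in every nerve. Col1a1 was lower in crushed nerves (log2 fold change -0.69, adjusted p 0.00066 by edgeR). Pdgfra, at 44.0 to 55.8 CPM, went the other way (log2 fold change 0.19, adjusted p 0.166 by edgeR). The 5 markers summed to 63.6 to 70.7 CPM in intact and 62.5 to 69.1 CPM in crushed nerves. The proliferation marker Mki67 was at 1398 to 1733 CPM. The part of these markers in the results below was not tested.

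Per length of gene, in FPKM (counts scaled by gene length and library size, as the authors computed them), the ER chaperones led the set. Calr, a calcium-binding lectin of the ER, had the highest mean over the 6 nerves (878 FPKM, range 861 to 899). Hspa5 followed at 355 FPKM (328 to 396) and Hsp90b1, the HSP90 of the ER, at 328 FPKM (324 to 331). The ranges of these 2 genes overlapped between nerves, although Hspa5 was the higher of them within each of the 6 nerves. Hspd1, the HSP60 chaperonin of the mitochondrial matrix, lay at 284 FPKM (268 to 302) and Hsph1, an HSP110 that exchanges nucleotide on HSP70, at 100.4 FPKM (98.1 to 102). Xbp1 (41.6 FPKM) and Hspb1 (39.4 FPKM) overlapped in range, with Hspb1 the higher in intact nerve 1, and Hsf1 (23.8 FPKM), Dnajb1 (8.38 FPKM) and the row named Hspa8 (2.76 FPKM) followed without overlap. FPKM of different genes also carry differences in how well reads can be placed, which bears on Hspa8 as described further on.

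**Figure D2:**
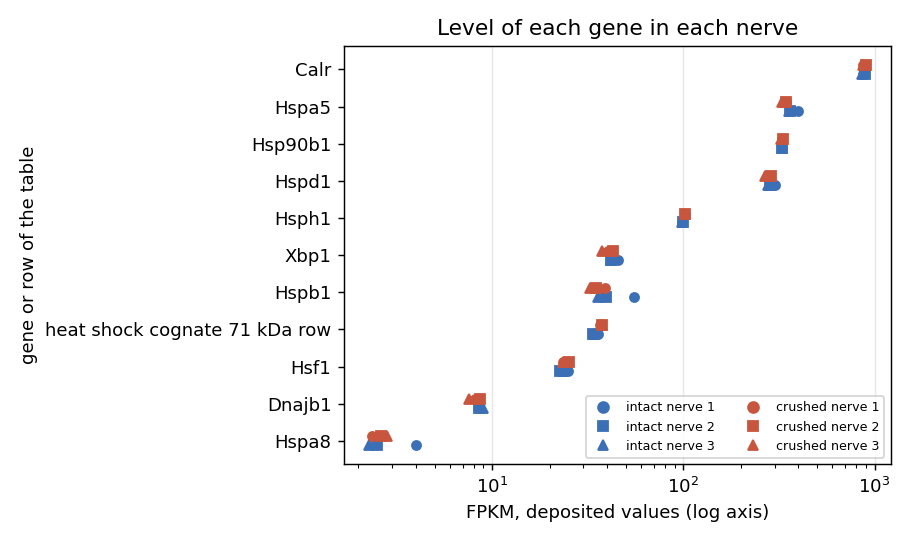
Level of each gene in each nerve in FPKM on a log axis, with 3 intact (blue) and 3 crushed (red) nerves per gene, in order of mean level, and with the row described as heat shock cognate 71 kDa protein added. Calr sits at the top, at 861 to 899 FPKM, and the Hspa8 row at the bottom, at 2.27 to 3.997 FPKM.

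None of the 10 genes differed between crushed and intact nerves at an adjusted p under 0.05. With edgeR's quasi-likelihood test, adjusted by Benjamini-Hochberg over all 12393 genes tested, 0 of 10 were called in either direction, where 3.12% of all genes were called, 1.47% as higher and 1.65% as lower. By the limits of the study (an absolute log2 fold change above 1 and an unadjusted p under 0.001) 0 of 10 were also called, against 0.282% of all genes. At an unadjusted p under 0.05 there was 1 gene, Hspa5, and DESeq2 and limma also called 0 of 10 and had 1 gene at that level. The 3 crushed nerves lay wholly on one side of the 3 intact nerves for 2 of the 10 genes, Hspa5 and Hsph1, and for 23.0% of all genes tested. The log2 fold change was below 0 in 8 and above 0 in 2 of the 10 genes (median -0.086), while 50.6% of all genes tested were below 0 (median -0.0017). Calr is among the 8 although limma on log2 FPKM put it above 0. The row named Hspa8 is also among them. The row described as heat shock cognate 71 kDa protein, set out further on, was at 0.09, and both rows summed were at 0.07. Intact nerve 1 had the highest CPM of the intact nerves in 7 of the 10 genes, and in 38.1% of all genes tested.

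The 95% intervals bound the change that these nerves leave possible. Over the 10 genes the widest bounds were 1.54-fold lower, for Hspb1, and 1.19-fold higher, for the row named Hspa8. The median coefficient of variation between nerves of a group was 5.23% for intact and 4.02% for crushed nerves. In bulk RNA, fewer cells of a type and less RNA per cell cannot be told apart.

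**Figure D3:**
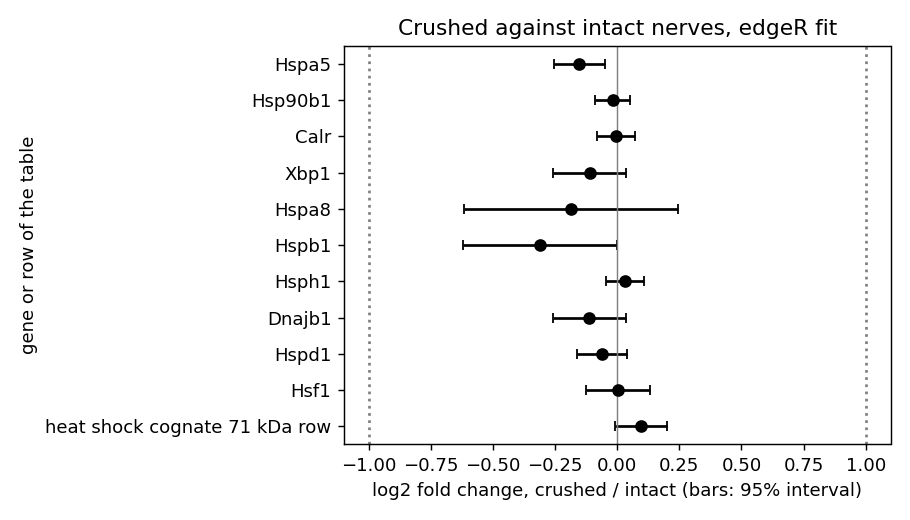
Log2 fold change of crushed over intact nerves for each gene and for the heat shock cognate row (points) with the 95% interval (bars), from the edgeR fit on 3 nerves per group. Dotted lines mark an absolute log2 fold change of 1, the fold limit of the study. Only the interval of Hspa5 (-0.26 to -0.05) excludes 0, without correction for the number of genes, and those of Hspa8 and Hspb1 are the widest.

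Hspa5 (ENSRNOG00000018294, chr3:13838304-13842762 in Rnor_6.0, the build of the deposited positions) encodes BiP, the HSP70 of the ER lumen. Its level was 1023, 933 and 919.6 CPM in intact nerves 1, 2 and 3, and 875, 876 and 836 CPM in crushed nerves 1, 2 and 3. All crushed nerves lay below all intact nerves, and intact nerve 1 was the highest of the 6. The means were 959 ± 56.5 CPM for intact and 862 ± 22.5 CPM for crushed nerves (SD, n = 3 each). The log2 fold change of -0.15 (SE 0.046, 95% interval -0.26 to -0.05) had an adjusted p of 0.119 by edgeR's quasi-likelihood test. Without intact nerve 1 it was -0.10, with an adjusted p of 0.154.

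Hsp90b1 (ENSRNOG00000026963, chr7:27226569-27240533) encodes GRP94, which folds integrins and Toll-like receptors among other clients. It was the steadiest of the ER genes, at 1330.0, 1329 and 1317 CPM in intact and 1310.2, 1321 and 1294 CPM in crushed nerves. The groups overlapped and the log2 fold change was -0.019 (95% interval -0.09 to 0.05, adjusted p 0.825). Calr (ENSRNOG00000003029, chr19:25956771-25961666) encodes calreticulin, which holds newly made glycoproteins and stores calcium. Its level was 1635, 1678 and 1611 CPM in intact and 1616, 1669 and 1615 CPM in crushed nerves. The groups overlapped throughout, with a log2 fold change of -0.0069 (95% interval -0.08 to 0.07, adjusted p 0.947).

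Xbp1 (ENSRNOG00000010298, chr14:85753760-85758145) encodes the transcription factor made active by IRE1 splicing. A count per gene does not separate the spliced from the unspliced transcript, so these values are of both together. They were 51.4, 46.8 and 46.6 CPM in intact and 44.8, 47.7 and 41.5 CPM in crushed nerves, with overlap between the groups. The log2 fold change was -0.11 (SE 0.066, 95% interval -0.26 to 0.04, adjusted p 0.451).

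The cytosolic chaperones include the row named Hspa8, and its identity needs to be stated before its values. Hspa8 encodes HSC70, the constitutive HSP70 of the cytosol and usually one of the most abundant chaperone transcripts. The row of that name (ENSRNOG00000032585) lies at chr5:99031013-99033107, and its length in the authors' FPKM, 2095 bases, equals its span, so that it holds no intron. RefSeq places Hspa8 on another chromosome, chr8, and the promoter windows shown for Hspa8 come from there and not from this row. A row named AABR07070032.1 (ENSRNOG00000034066, chr8:44990014-44993179) carries the description of heat shock cognate 71 kDa protein and cites a peptide that RefSeq gives to Hspa8. It lies on the chromosome where RefSeq has Hspa8, and 3 rows of the small nucleolar RNA SNORD14, which is known to be hosted in introns of Hspa8, lie inside it. The 2 rows can share reads, so the split between them is uncertain.

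The row named Hspa8 had 214, 139 and 118 counts in intact nerves, which is 8.46, 5.27 and 4.76 CPM. In crushed nerves it had 134, 149 and 147 counts, or 4.91, 5.49 and 5.87 CPM. Intact nerve 1 stood above the other 5 nerves, which overlapped. The log2 fold change was -0.19 (95% interval -0.62 to 0.25, adjusted p 0.690), and without intact nerve 1 it turned to 0.11.

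The row described as heat shock cognate 71 kDa protein was 13.0 times higher in mean FPKM (35.8 FPKM). It was at 69.6, 65.5 and 66.5 CPM in intact and at 70.4, 72.8 and 72.0 CPM in crushed nerves. Each crushed nerve exceeded each intact nerve, by little, with a log2 fold change of 0.09 (95% interval -0.0096 to 0.20, adjusted p 0.362). The row named Hspa8 held 10.8%, 7.45% and 6.69% of the counts of both rows in intact and 6.52%, 7.01% and 7.53% in crushed nerves. With the rows summed the log2 fold change was 0.07 (95% interval -0.04 to 0.19, adjusted p 0.531). The direction given for Hspa8 therefore depends on which row is read.

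The SNORD14 copy nearest the start of that span on the chromosome was at 1.38, 1.29 and 1.33 CPM in intact and 2.05, 2.14 and 2.16 CPM in crushed nerves. The log2 fold change of this copy was 0.66 (SE 0.17, adjusted p 0.0692), and those of the other copies were 0.32 (adjusted p 0.273) and 0.31 (adjusted p 0.362). In all 3 copies the crushed nerves lay above the intact nerves, on 33 to 99 counts per nerve. The copies belong to 1 family and sit within the span of the host row, so the authors' counting could have shared reads among these rows.

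Hspb1 (ENSRNOG00000023546, chr12:23839399-23841049) encodes HSP27. It had the largest absolute log2 fold change of the 10 genes and also a wide spread, at 49.0, 34.8 and 31.5 CPM in intact and 34.1, 30.5 and 28.3 CPM in crushed nerves. Intact nerve 1 lay above the other 5, and crushed nerve 1 lay above intact nerve 3. The log2 fold change was -0.31 (SE 0.14, 95% interval -0.62 to 0.00028) with an adjusted p of 0.309. Without intact nerve 1 it was -0.09 (adjusted p 0.685).

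Hsph1 (ENSRNOG00000000902, chr12:6322668-6341902) was the second gene whose groups did not overlap, with the crushed nerves higher. It was at 341, 344 and 341 CPM in intact and 348, 350.3 and 351 CPM in crushed nerves. The gap was small: means of 342 ± 1.74 and 349.6 ± 1.53 CPM (SD, n = 3 each), a log2 fold change of 0.03 (95% interval -0.05 to 0.11) and an adjusted p of 0.716 by edgeR. Dnajb1 (ENSRNOG00000021824, chr19:24747178-24750919) encodes HSP40, the J-domain protein that hands clients to HSP70. It was at 32.5, 32.4 and 34.1 CPM in intact and 30.5, 32.7 and 28.4 CPM in crushed nerves. Crushed nerve 2 lay within the intact range, and the log2 fold change was -0.11 (95% interval -0.26 to 0.03, adjusted p 0.444).

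Hspd1 (ENSRNOG00000014525, chr9:61680530-61690956), the mitochondrial chaperonin, was at 680.2, 637 and 619.8 CPM in intact and 629, 634 and 593 CPM in crushed nerves. The groups overlapped and the log2 fold change was -0.06 (95% interval -0.16 to 0.04, adjusted p 0.539). Hsf1 (ENSRNOG00000021732, chr7:117538523-117565478) is controlled mainly through its protein, so its transcript is not a reading of its activity. It was at 61.1, 54.8 and 56.6 CPM in intact and 56.1, 60.5 and 56.1 CPM in crushed nerves, with a log2 fold change of 0.0015 (95% interval -0.13 to 0.13, adjusted p 0.993).

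**Figure D4:**
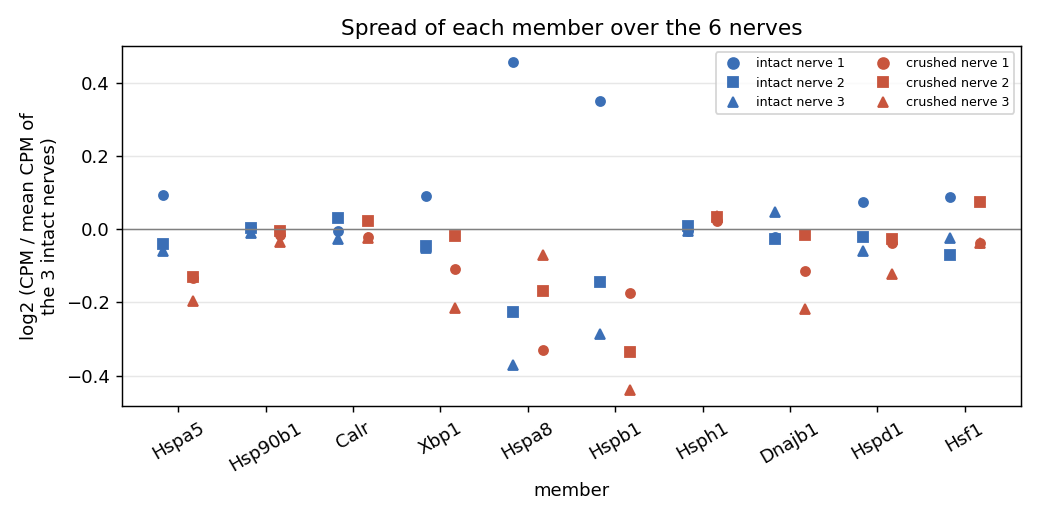
Log2 of each nerve's CPM over the mean CPM of the 3 intact nerves, for each of the 10 genes, with intact nerves in blue, crushed nerves in red and a marker shape per nerve number. For Hspa8 and Hspb1 intact nerve 1 sits above the other 5 nerves, and for Hspa5 and Hsph1 the groups do not overlap.

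ER and cytosolic chaperones were then set against each other within each nerve, which removes the scaling between libraries. The score was the mean log2 CPM of Hspa5, Hsp90b1 and Calr minus that of Hspa8, Hspb1, Hsph1 and Dnajb1, and it is a description with no test. It was 4.82, 5.08 and 5.10 in intact nerves and 5.07, 5.07 and 5.07 in crushed nerves, so that intact nerve 1 was low and the other 5 nerves were alike. The means were 5.0 ± 0.16 and 5.07 ± 0.0038 (SD, n = 3 each). The groups overlapped, with a difference of 0.07, which turned to -0.022 without intact nerve 1. With the heat shock cognate row in place of the row named Hspa8 the difference was 0.01, and with Hspa8 left out it was 0.07.

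Both means that make up the score were lowest in crushed nerve 3. The ER mean was 10.35, 10.32 and 10.29 in intact and 10.26, 10.28 and 10.23 in crushed nerves, lower in every crushed nerve. Of its 3 genes only Hspa5 had groups that did not overlap, with Hsp90b1 at -0.019 and Calr at -0.0069 in log2 fold change. Over all genes tested, the groups did not overlap in 23.0%. The cytosolic mean was 5.53, 5.24 and 5.18 in intact and 5.19, 5.22 and 5.16 in crushed nerves, with overlap. The median log2 fold change was -0.019 over the 3 ER chaperones, -0.15 over the 4 cytosolic chaperones and -0.055 over the transcription factors. The cytosolic median includes the row named Hspa8 (-0.19), whereas the heat shock cognate row was at 0.09. Without intact nerve 1, the row named Hspa8 was at 0.11, Hspb1 at -0.09, Hsph1 at 0.03 and Dnajb1 at -0.12. The 2 HSP70 genes gave a different picture by row: the log2 ratio of Hspa5 to the row named Hspa8 differed by -0.0099 between groups and overlapped. The log2 ratio of Hspa5 to the heat shock cognate row was 3.88, 3.83 and 3.79 in intact and 3.64, 3.59 and 3.54 in crushed nerves. It was lower in every crushed nerve, by 0.25 in the mean. Hspa5 was lower and that row higher in every crushed nerve, so their ratio could only be lower there.

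The other genes of the folding pathways were read from 10 lists with 142 names, of which 138 were in the table, 9 were at 0 in every nerve and 125 were tested. By edgeR, 0 were called higher and 2 lower, where 1.47% and 1.65% of all genes tested were called, and 21 had an unadjusted p under 0.05, 8 of them higher and 13 lower, where 16.2% of all genes tested were under that level. DESeq2 called 1 higher and 3 lower, and limma on log2(FPKM + 0.1) called 0. The groups did not overlap in 38 of the 125, and in 23.0% of all genes tested. The median log2 fold change was -0.025.

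The 2 genes called were lower in crushed nerves. Hspb6, a small heat shock protein also known as HSP20, fell from 15.4, 11.8 and 14.2 CPM to 9.52, 10.1 and 9.50 CPM (log2 fold change -0.51, SE 0.11, adjusted p 0.0297). Pfdn4, a subunit of prefoldin, which passes new actin and tubulin chains to the chaperonin TRiC, fell from 24.5, 18.9 and 20.7 CPM to 15.6, 16.4 and 14.3 CPM (log2 fold change -0.47, SE 0.10, adjusted p 0.0338). Neither call held with limma, and of the fits that each left out 1 nerve both calls held only in the fit without intact nerve 2.

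Over all genes tested, 3.12% were called by edgeR and 16.2% had an unadjusted p under 0.05. Among the other cytosolic HSP70, HSP90 and cofactor genes 0 of 22 were called (2 at an unadjusted p under 0.05). The one with the highest FPKM was Hsp90ab1, the constitutive HSP90, at 3012, 2999 and 3013 CPM in intact and 3135, 3146 and 3136 CPM in crushed nerves. The groups did not overlap, with a log2 fold change of 0.06 (95% interval -0.0056 to 0.13, adjusted p 0.358). The values of Hspa1a, Hspa1b and Hsp90aa1, which encode inducible HSP70 and HSP90, were looked up after they were seen. Hspa1a and Hsp90aa1 were at 0 counts in every nerve, which by counting error alone allows a level up to 0.121 CPM. A count of 0 does not separate an absent transcript from reads that were not assigned to that row. Hspa1b had 3 to 9 counts per nerve. Hspa1a and Hspa1b are near-identical copies, so that their levels are uncertain where the authors' counting split or dropped shared reads.

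For the remaining cytosolic lists, 0 of 10 J-domain genes were called (2 at an unadjusted p under 0.05, median log2 fold change -0.06). Dnaja1, the highest of them in FPKM, was lower in every crushed nerve, with a log2 fold change of -0.12 (adjusted p 0.257). Of the small heat shock proteins 4 of 9 were tested, all with a log2 fold change below 0 (median -0.31), and Hspb8, the highest, was at -0.08 (adjusted p 0.365). Of the chaperonin TRiC and prefoldin genes 1 of 14 was called, and the TRiC subunit Cct2 was at -0.05 (adjusted p 0.486). In mitochondria 0 of 9 were called (0 at an unadjusted p under 0.05), and Hspa9, the mitochondrial HSP70, was at 0.00051 (adjusted p 0.997). Of heat shock factors and regulators 0 of 4 were called (0 at an unadjusted p under 0.05), and Hsbp1, which binds HSF1, was at -0.05 (adjusted p 0.666). Beside these counts stand the 3.12% of all genes tested that were called and the 16.2% at an unadjusted p under 0.05.

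In the ER, 0 of 21 other chaperones and cofactors were called, with 5 at an unadjusted p under 0.05 and a median log2 fold change of -0.07. The shares over all genes tested, for this list and the next ones, were 3.12% called and 16.2% at an unadjusted p under 0.05. Canx, the membrane partner of calreticulin, was at 0.01 (adjusted p 0.911). Of the oxidoreductases and glycoprotein folding genes 0 of 17 were called (3 at an unadjusted p under 0.05), and Pdia3, which works with calreticulin, was at 0.03 (adjusted p 0.745). Of the ER stress sensors and their proteases 0 of 9 were called (4 at an unadjusted p under 0.05), and Mbtps1, which cuts ATF6, was at 0.04 (adjusted p 0.638). Of ER-associated degradation 0 of 15 were called (2 at an unadjusted p under 0.05), and Vcp, the segregase that draws proteins out of the ER, was at 0.04 (adjusted p 0.668).

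**Figure D5:**
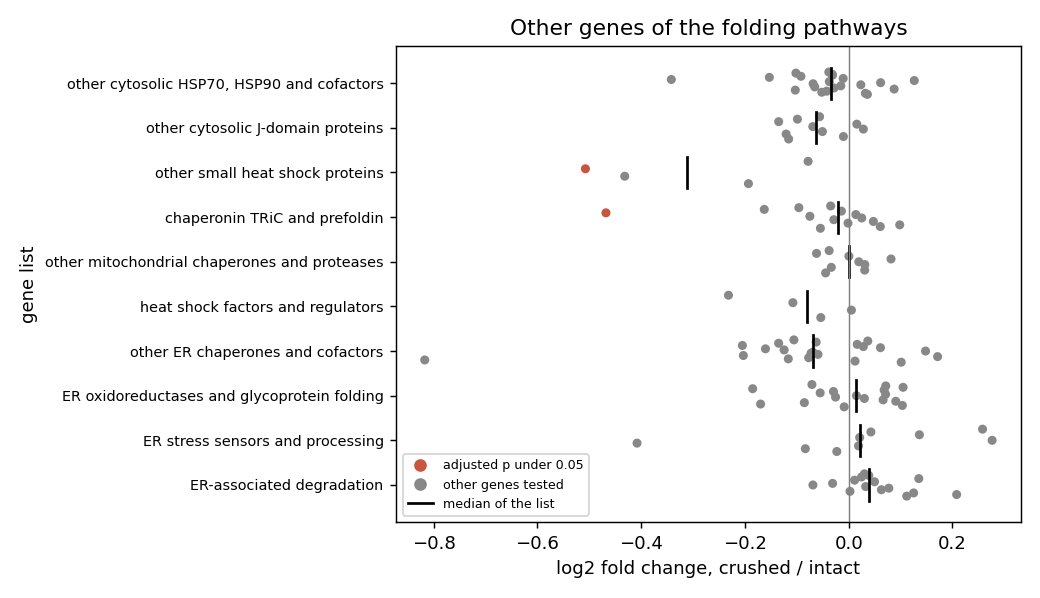
Log2 fold change of crushed over intact nerves for the 125 genes tested in 10 pathway lists, 1 point per gene, with black bars for the median of each list. The 2 red points are Hspb6 and Pfdn4, both below 0, and the medians lie between -0.31 and 0.04.

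The promoter elements were also read against the change of all genes that hold them, beside the 1.47% of all genes tested that were called higher and the 1.65% called lower. Of the genes with the ER element 15 were tested, with 0 called higher, 1 called lower (Hnrnpa3, an RNA-binding protein) and a median log2 fold change of -0.07. Of the genes with the heat shock run of 3 units 41 were tested, with 1 called higher (Ercc4, a DNA repair nuclease), 0 called lower and a median of 0.0010. Promoters were joined to rows by symbol, so Hspa8 entered through the row of that name. The ER set includes the listed genes Canx, Creld2, Derl3 and Dnajc3, and the heat shock set Cct4, Chordc1, Dnaja1 and Serpinh1.

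For the 2 genes whose groups did not overlap, the 3 genes tested with the most similar pattern were found by Pearson's r of log2 CPM over the 6 nerves, as a description. The nerves share library and group, so such r values arise from few points. For Hspa5 they were Loxl1 (r 0.996), Bambi (r 0.995) and Tuba1b (r 0.994). Loxl1, which cross-links elastin, went from 213, 178 and 168 CPM in intact to 152, 155 and 135 CPM in crushed nerves. For Hsph1 they were Camk1d (r 0.994), Ginm1 (r 0.993) and Ifi35 (r 0.993). Between Hspa5 and Hsph1 themselves r was -0.84. They were picked because their groups did not overlap, and they did so in opposite directions, so a negative r largely restates that separation. Between Hspa5 and the other genes with the ER element, r was 0.89 for Xbp1, 0.82 for Hsp90b1 and 0.19 for Calr. The likeness was not particular to that set. Of the other genes with a heat shock run, r with Hspa5 was 0.92 for Hspb1, 0.90 for Hspd1, 0.65 for the row named Hspa8 and 0.62 for Dnajb1.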

How the data were processed

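For each of 6 nerves the authors deposited, in 1 table, a count of reads per Ensembl gene, not normalized, and FPKM values that the authors computed from those counts with a length per gene. The submitters' processing notes name HISAT2, StringTie (version 1.3.0) and Rnor_6.0. Each of the 12 value columns carries a sample title. The counts were compared in R 4.3.3 by the quasi-likelihood test of edgeR 4.0.16 (limma 3.58.1 beside it), with TMM scaling, edgeR's expression filter, all 6 nerves and no replicate block. A gene was called at a Benjamini-Hochberg adjusted p under 0.05 over all 12393 genes tested. Standard errors and 95% intervals came from the test statistic and its degrees of freedom. Alternatives were DESeq2 (version 1.42.0), limma with a trend on log2(FPKM + 0.1) and log2(FPKM + 1), RLE size factors, no filter, a replicate block, each nerve left out, and the limits of the study. The sum of both Hspa8 rows, and the score with the other row or without Hspa8, were chosen after the values were seen. The ratio of Hspa5 to the heat shock cognate row was not among the planned results. Floors of 3 counts cover counting error only. The 10 genes and all lists were chosen with earlier results of these data known. Genes named are the 10 genes, of each list those called (up to 4) and the one highest in FPKM, the 3 most similar to Hspa5 and Hsph1, and of markers those at 0 in every nerve and the highest. Any other gene was chosen after its values were seen. The calculation was tested on simulated counts. RefSeq coordinates are those of GRCr8 and were not converted.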

Additional observations from a re-analysis of the deposited data

How the results depend on the processing

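Of the 121 alternative values of the 10 genes, 111 kept their direction and their side of the threshold, 10 reversed in sign and 0 reached an adjusted p under 0.05. The smallest adjusted p was 0.0889, for Hspa5 with DESeq2. The reversals were in Hspa8, Hsf1 and Calr, and the cause was not tested. Leaving out each nerve gave log2 fold changes of -0.34 to 0.11 for Hspa8, which turned without intact nerve 1, -0.036 to 0.053 for Hsf1 and -0.022 to 0.012 for Calr, and of -0.027 to 0.023 for Hspa9 and -0.015 to 0.033 for Canx. With its rows summed Hspa8 was at 0.073, and Calr was at 0.010 with limma at either pseudocount. Over all genes, 182 were called higher (100 to 218 with a nerve left out) and 205 lower (75 to 174). The limits of the study called 27 higher and 8 lower, and limma called 86 lower with a pseudocount of 0.1 and 94 with 1. Of the pathway lists, where 0 were called higher and 2 lower, DESeq2 called 1 higher, leaving out a nerve 0 to 1 higher and 0 to 2 lower, and limma and the limits of the study 0 lower. The replicate block called 0 pathway genes lower (adjusted p 0.0589 for Hspb6 and 0.0502 for Pfdn4) and 300 genes in all, of which 284 were among the 387 called without it. Deviations of same-numbered nerves correlated at -0.0148, 0.00586 and 0.0756, and those of nerves with different numbers at -0.073 to 0.073. Correlations this small cannot tell whether the numbers pair nerves of 1 animal. The ER minus cytosolic difference ranged from -0.022 to 0.12 with a nerve left out, from 0.07 with all nerves, and was negative only without intact nerve 1. The row named Hspa8 rests on 118 to 214 counts per nerve, the fewest of the 10 genes.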

Other observations

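Of the ER stress sensors and their processing enzymes, the following values were chosen after they were seen. Creb3l2, an ER-bound transcription factor cut like ATF6, was at 27.7, 23.2 and 23.1 CPM in intact and 30.5, 30.1 and 29.1 CPM in crushed nerves (log2 fold change 0.28, adjusted p 0.103 by edgeR). Ern1, which encodes the Xbp1-splicing sensor IRE1, was at 95.9, 87.9 and 96.6 CPM in intact and 103, 102 and 103 CPM in crushed nerves (log2 fold change 0.14, adjusted p 0.184). Mbtps2, a protease that cuts ATF6, was at 58.3, 76.3 and 80.0 CPM in intact and 84.3, 86.2 and 86.1 CPM in crushed nerves (log2 fold change 0.26, adjusted p 0.202). In these 3 genes every crushed nerve lay above every intact nerve, and none passed the threshold. The largest absolute log2 fold change of the list was on the other side, in Creb3l1, at 10.2, 10.2 and 9.73 CPM in intact and 7.54, 9.02 and 6.03 CPM in crushed nerves (log2 fold change -0.41, adjusted p 0.150). Over the list the groups did not overlap in 6 of 9 genes tested, 3 higher and 3 lower in crushed nerves. Over all genes tested they did not overlap in 23.0%. Atf6 itself was at 186, 186 and 186 CPM in intact and 183, 183 and 183 CPM in crushed nerves (log2 fold change -0.023, adjusted p 0.805). Without intact nerve 1, Creb3l2 was the 1 pathway gene called higher.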
